A study of Mus musculus with 6 samples.

Results

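Poly(A)-selected liver RNA from 3 WT and 3 Prox1-cKO mice was examined for 51 genes of the lysosome, chosen by symbol from the 29667 genes of the deposited count table: the cathepsins and other proteases, the glycosidases, the sulfatases, the enzymes and carriers of lipids, the proteins of the lysosomal membrane, 4 parts of the proton pump, and the transcription factors Tfeb and Tfe3. Both genotypes carry the floxed Prox1 allele on a C57BL/6 background, and the Prox1-cKO mice (Alb-Cre; Prox1 f/f) also carry a Cre recombinase driven by the promoter of albumin, a hepatocyte gene. No source used here gives the age, sex or treatment of these 6 mice, nor says whether they belong to the chemically induced tumour model of the same study. Levels are counts scaled to a common library total after TMM normalization (trimmed mean of M-values), in TMM-normalized CPM, and a gene was called higher or lower at an adjusted p under 0.05 in edgeR's quasi-likelihood test over the 14843 genes tested, which include all 51.

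The libraries held 18066205 to 20537091 reads in genes. For Prox1 itself, WT libraries 1 to 3 gave 558, 729 and 837 CPM, and Prox1-cKO libraries 212, 179 and 172 CPM (log2 −1.91, adjusted p = 6.05e-04). All 3 Prox1-cKO libraries lay below all 3 WT libraries, as their labels state. Hepatocyte markers summed to 78633 to 89203 CPM in WT and to 129511 to 158116 CPM in Prox1-cKO, without overlap. Most of that sum was Alb, at a mean of 57607 CPM in WT and 81508 CPM in Prox1-cKO. Alb itself was not called (log2 0.50, adjusted p = 0.254). Across all genes, 14.1% were called higher in Prox1-cKO and 20.2% lower, and 49.9% had no overlap between the genotypes. With library totals in place of TMM, the log2 fold changes of all genes shift by a median of −0.41, so the directions below are relative to the TMM scale.

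The lysosome is the acidic compartment in which proteins, glycans, glycogen and lipids delivered by endocytosis and autophagy are broken down. Its enzymes are made in the endoplasmic reticulum and carried from the Golgi by mannose 6-phosphate receptors, a vacuolar-type proton pump keeps the interior acid, and heavily glycosylated membrane proteins line it. TFEB and TFE3 are basic helix-loop-helix factors of the MiT/TFE family. They are held in the cytoplasm when mTORC1 is active, and in the nucleus they bind an E-box, best known as the CLEAR element, near the starts of many lysosomal genes. In liver, hepatocytes and the resident macrophages, Kupffer cells, are both rich in lysosomes. Since the RNA comes from whole liver, fewer cells of a type and less RNA per cell cannot be told apart.

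The promoters were searched for that E-box, since it is the sequence through which the 2 factors are known to act on the other genes. RefSeq windows of 250 bases before to 50 bases after a transcription start (GRCm38.p6) were given for 45 of the 51 genes, and no window was used for Ctsb, Ctsh, Asah1, Npc1, Atp6v1h and Atp6v0d2. The 6-base core CACGTG, which reads the same on both strands, was in the windows of 15 of the 45 genes (33.3%), against 8.09% of all genes in the RefSeq table. The longer palindrome TCACGTGA, which contains that core and also reads the same on both strands, was in 6 of the 45 (13.3%), against 1.12% of all genes. The 6 genes with the palindrome were Ctsa, Ctsd, Gla, Mcoln1, Cln3 and Atp6v0d1. They are shown first because they carry the fullest match, with 30 bases each, the palindrome in capitals and the strand of the gene given; Ctsa and Gla hold another copy that is not printed.
Ctsa, chr2:164833749-164833778 (+): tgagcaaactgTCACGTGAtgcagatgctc
Ctsd, chr7:142387908-142387937 (−): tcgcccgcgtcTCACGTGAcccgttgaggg
Gla, chrX:134601182-134601211 (−): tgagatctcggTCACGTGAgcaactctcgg
Mcoln1, chr8:3500462-3500491 (+): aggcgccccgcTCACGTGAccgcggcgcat
Cln3, chr7:126583340-126583369 (−): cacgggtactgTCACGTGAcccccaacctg
Atp6v0d1, chr8:105566050-105566079 (−): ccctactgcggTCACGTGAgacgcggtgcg

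Among the other genes with the core, 3 were higher in Prox1-cKO (Ctsl, Ctsf and Gaa) and 4 were lower (Lgmn, Glb1, Sgsh and Lamp1). Their sequences are shown because the same 6 letters, in capitals, stand in the windows of genes that moved in opposite directions.
Ctsl, higher, chr13:64370739-64370768 (−): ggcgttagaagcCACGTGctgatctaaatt
Ctsf, higher, chr19:4855074-4855103 (+): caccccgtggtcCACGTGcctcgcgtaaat
Gaa, higher, chr11:119267811-119267840 (+): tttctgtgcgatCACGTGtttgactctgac
Lgmn, lower, chr12:102439124-102439153 (−): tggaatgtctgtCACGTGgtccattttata
Glb1, lower, chr9:114401018-114401047 (+): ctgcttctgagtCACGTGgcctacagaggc
Sgsh, lower, chr11:119355522-119355551 (−): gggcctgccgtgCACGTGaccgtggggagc
Lamp1 is shown over 80 bases up to its start because it holds 4 cores there, more than any other of these windows.
Lamp1, lower, chr8:13159081-13159160 (+): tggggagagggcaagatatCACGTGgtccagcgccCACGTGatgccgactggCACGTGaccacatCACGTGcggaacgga
A match of these letters is a description of the sequence, not of a bound site.

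Of the 51 genes, 6 were called higher in Prox1-cKO and 17 lower, and 28 did not pass, where the rates over all genes correspond to 14.1% higher and 20.2% lower. The genotypes did not overlap in 34 of the 51, against 49.9% of all genes tested. In 7 of the 34, Prox1-cKO lay above WT, and in 27 below. The median log2 fold change was −0.27, against −0.02 over all genes tested. Summed over the 51 genes, the level was 8240.4, 7867 and 7871 CPM in WT and 7023, 6783 and 6923 CPM in Prox1-cKO, or 0.864 of the WT mean. The sums did not overlap, but the genes ran from a log2 fold change of −4.71 for Cd63 to 0.93 for Ctsl. With library totals alone, the split was 1 higher (Ctsl) and 36 lower, against 725 higher and 6060 lower of all 14843 genes tested.

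**Figure D1:**
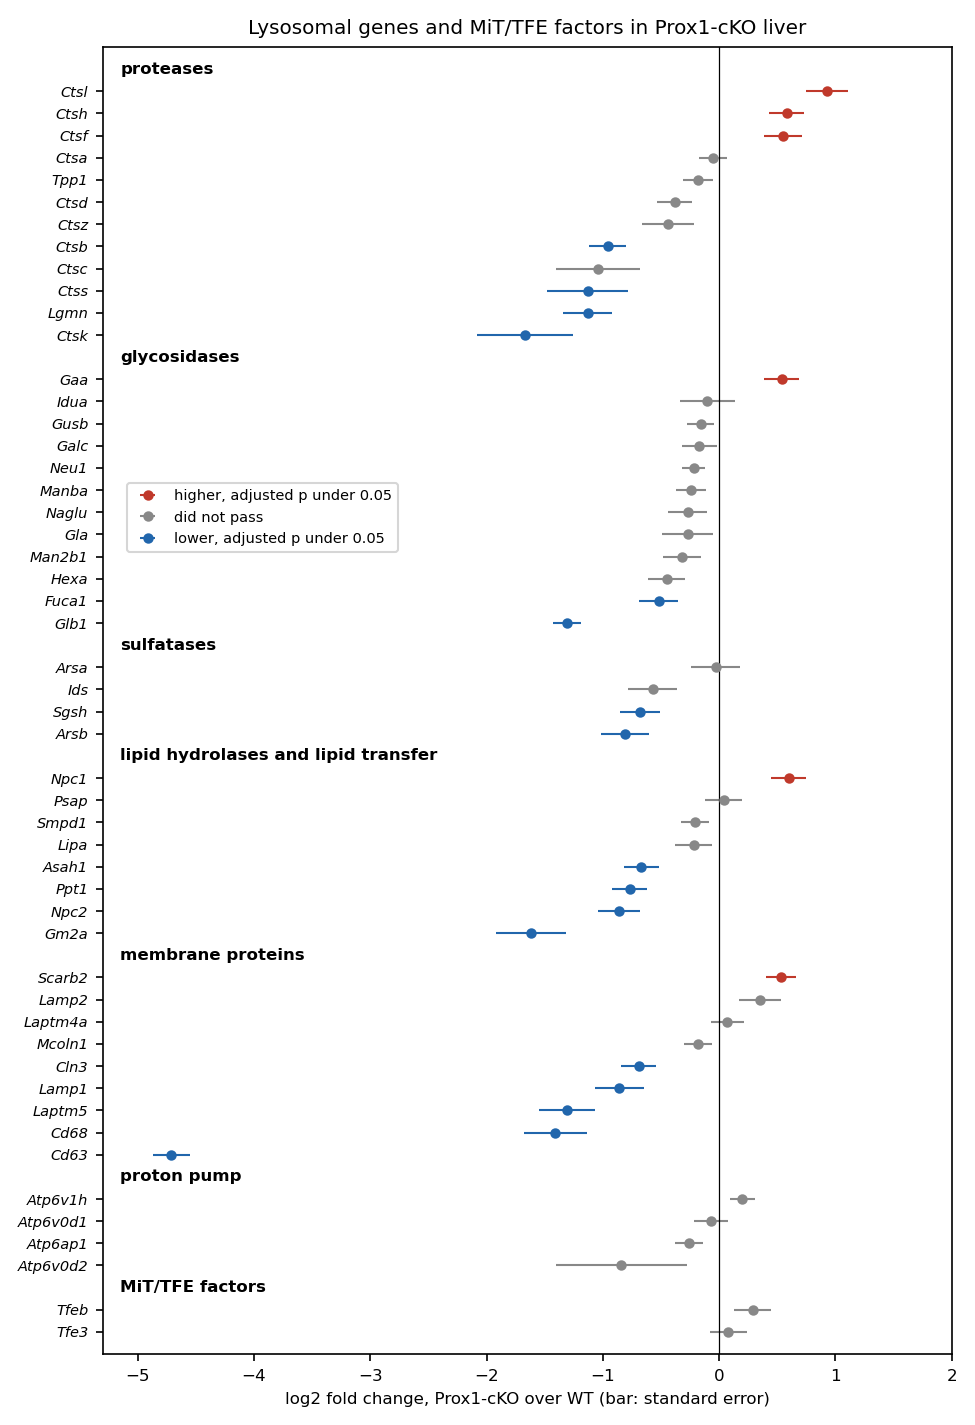
Log2 fold change of the 51 genes in Prox1-cKO over WT liver, grouped by role, with standard errors from edgeR's quasi-likelihood fit (n = 3 per genotype). The 6 red points to the right of 0 and the 17 blue points to the left were called, Cd63 lies far from all others at −4.71, and Tfeb and Tfe3 at the bottom did not pass.

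Of these 23 calls, 11 held with each library left out in turn and in each of the other fits: Ctsb, Ctsl, Lgmn, Glb1, Ppt1, Gm2a, Npc2, Cd63, Cd68, Laptm5 and Cln3. The other 12 lost the call without at least 1 library, with no change of direction. The adjusted p of Asah1 was 0.0583 without Prox1-cKO replicate 2. Ctsk lost the call without replicate 1 of either genotype (up to 0.0559), Ctsh without WT replicate 2 or Prox1-cKO replicate 1 (up to 0.0681), Lamp1 without Prox1-cKO replicate 1 or 2 (up to 0.0812), and Scarb2 without WT replicate 1 or Prox1-cKO replicate 2 (up to 0.0687). Sgsh, Arsb and Npc1 lost it with any of 3 libraries left out, at adjusted p up to 0.0660, 0.0728 and 0.0723: Sgsh without WT replicate 2 or Prox1-cKO replicate 1 or 3, Arsb without any 1 of the Prox1-cKO libraries, and Npc1 without WT replicate 1 or 2 or Prox1-cKO replicate 2. Ctsf lost it without WT replicate 1 or any 1 of the Prox1-cKO libraries (up to 0.0910), and Gaa without WT replicate 1 or 2 or Prox1-cKO replicate 2 or 3 (up to 0.0901). Ctss stayed called with WT replicate 3 left out and with no other library left out (0.0774 to 0.122 without the others). Fuca1 lost the call whichever library was left out (0.0621 to 0.185), and its smallest log2 fold change, −0.33, came without WT replicate 3.

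The proteases split into risers and fallers. Of 12, 3 were higher in Prox1-cKO and 4 were lower, against 14.1% and 20.2% of all genes tested. With so few genes in each role, the counts by role here and below say little about a role. The summed level of the proteases was 2932 to 3479.7 CPM in WT and 2659 to 2919.7 CPM in Prox1-cKO. Ctsl, a cysteine endopeptidase of broad specificity (chr13:64359337-64370890, GRCm38), rose most of all 51 genes. It was 417, 507 and 458 CPM in WT and 1030.3, 833 and 766 CPM in Prox1-cKO, 1.90-fold higher (log2 0.93, standard error 0.18, adjusted p = 0.00731). Each Prox1-cKO liver was above each WT liver, and with library totals alone the log2 fold change was 0.51 (adjusted p = 0.0425). Ctsb, its close relative that also acts as a dipeptidyl carboxypeptidase (chr14:63122462-63145923, GRCm38), moved the other way. It was 1231, 1147 and 1079.9 CPM in WT and 624, 578 and 572 CPM in Prox1-cKO (log2 −0.96, standard error 0.16, adjusted p = 0.00371), again with no overlap. The ratio of Ctsl to Ctsb reads within a library, which no scaling of libraries can change, was 0.339, 0.442 and 0.424 in WT and 1.65, 1.44 and 1.34 in Prox1-cKO. That is a log2 difference of 1.88. A two-sided exact permutation test gave p = 0.10, the smallest that 3 against 3 libraries allow, or 0.50 adjusted over the 5 ratios tested. The other 4 ratios gave larger p before adjustment: Ctss to Ctsd (log2 difference −0.62, p = 0.30), Cd68 to Lamp1 (−0.52, p = 0.40), Atp6v0d2 to Atp6v0d1 (−0.95, p = 0.40) and Tfeb to Tfe3 (0.22, p = 0.50), each by the same exact test.

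Ctsh, an aminopeptidase, was 187, 161 and 153 CPM in WT and 273, 226 and 248 CPM in Prox1-cKO (log2 0.58, adjusted p = 0.0203), without overlap. Ctsf, another cysteine protease, was 25.4 to 36.6 CPM in WT and 41.7 to 46.5 CPM in Prox1-cKO (log2 0.55, adjusted p = 0.0298). Both rises shrank to log2 0.16 and 0.13 with library totals alone and no longer passed (adjusted p = 0.403 and 0.542).

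Lgmn, the asparaginyl endopeptidase that processes other cathepsins, was 226, 192 and 126 CPM in WT and 85.1, 86.7 and 76.2 CPM in Prox1-cKO (log2 −1.13, standard error 0.21, adjusted p = 0.00612). The groups did not overlap, although WT replicate 3 was well below the other WT livers. Ctss, the cathepsin of antigen-presenting cells that cleaves the invariant chain, was 174, 163 and 61.3 CPM in WT and 69.6, 59.5 and 52.6 CPM in Prox1-cKO (log2 −1.13, standard error 0.35, adjusted p = 0.0399). Here WT replicate 3 lay inside the range of the Prox1-cKO livers. Ctsk, a collagen-degrading cathepsin best known from osteoclasts, was 1.98, 1.52 and 1.73 CPM in WT and 0.562, 0.819 and 0.237 CPM in Prox1-cKO (log2 −1.67, adjusted p = 0.0168). The groups did not overlap, at a low level in both.

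The remaining 5 proteases did not pass. Ctsc, the dipeptidyl peptidase that activates granule proteases of leukocytes, was 261, 242 and 117 CPM in WT and 146, 76.3 and 79.9 CPM in Prox1-cKO (log2 −1.04, adjusted p = 0.0550). It passed without WT replicate 3 (log2 −1.30, adjusted p = 0.00891) or without Prox1-cKO replicate 1 (log2 −1.39, adjusted p = 0.0309). It also passed with library totals alone, no filter, DESeq2 or a replicate block (adjusted p = 0.0122, 0.00972, 0.0149 and 0.0208). Ctsd, the main aspartic protease, was 155 to 209.9 CPM in WT and 138 to 141 CPM in Prox1-cKO (log2 −0.38, adjusted p = 0.0777). Ctsa, which protects β-galactosidase and neuraminidase in a complex, was nearly level at 190.1 to 196 CPM against 180.0 to 189 CPM. Tpp1, a tripeptidyl peptidase, had a log2 fold change of −0.18. Ctsz, a carboxypeptidase, was 399, 335 and 391 CPM in WT and 202, 271 and 357 CPM in Prox1-cKO, with overlap (log2 −0.44, adjusted p = 0.158).

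**Figure D2:**
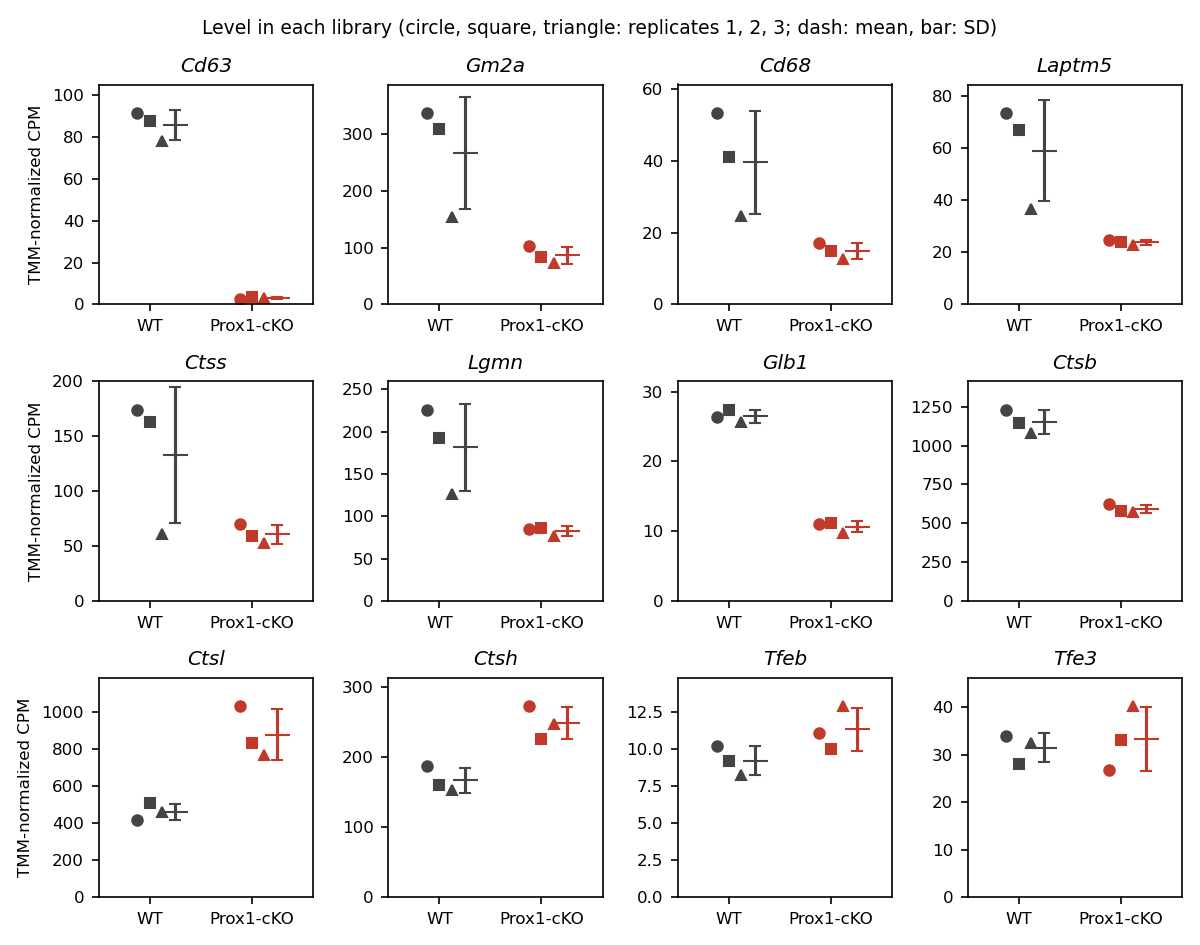
TMM-normalized CPM of 12 genes in each library, with each gene on its own axis from 0 and the mean and SD (n = 3) beside the points. WT replicate 3 (grey triangle) lies well below the other WT libraries for Gm2a, Cd68, Laptm5, Ctss and Lgmn. It is also the lowest WT library for Cd63, Glb1, Ctsb, Ctsh and Tfeb, but by less.

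Among the 12 glycosidases, which strip sugars from glycoproteins, glycolipids, glycosaminoglycans and glycogen, 1 was higher and 2 were lower. These counts are no more than the shares of all genes tested, 14.1% higher and 20.2% lower. Of the 12, 11 had a negative log2 fold change. The sum was 613 to 695 CPM in WT and 579 to 586 CPM in Prox1-cKO. Glb1, the β-galactosidase that is also the usual marker enzyme of senescent cells (chr9:114401076-114474898, GRCm38), was the largest change among them. It was 26.3, 27.4 and 25.6 CPM in WT and 11, 11.2 and 9.76 CPM in Prox1-cKO, 2.48-fold lower (log2 −1.31, standard error 0.12, adjusted p = 3.64e-04). The genotypes were far apart beside the differences within each. Gaa, the acid α-glucosidase that degrades glycogen, was the riser, at 102, 108 and 121 CPM in WT and 138, 175 and 171 CPM in Prox1-cKO (log2 0.54, adjusted p = 0.0236). No library overlapped, but the log2 fold change was 0.14 with library totals alone (adjusted p = 0.457). Fuca1, the α-fucosidase, was 105 to 145 CPM in WT and 71.1 to 89.1 CPM in Prox1-cKO (log2 −0.52, adjusted p = 0.0497), just inside the threshold. The 9 that did not pass ran from −0.45 for Hexa, which acts on GM2 ganglioside (54.3 to 68.6 CPM against 38.1 to 54.0 CPM), to −0.10 for Idua, the α-iduronidase. Idua, the α-galactosidase Gla (log2 −0.27), the β-glucuronidase Gusb (−0.16) and the α-mannosidase Man2b1 (−0.32) overlapped between the genotypes. Without overlap but also short of the threshold were the neuraminidase Neu1 (45.1 to 49.5 CPM in WT, 38.9 to 41.6 CPM in Prox1-cKO, log2 −0.22), Naglu, which acts on heparan sulfate (31.9 to 35.1 against 20.9 to 31.4 CPM, log2 −0.27), the β-mannosidase Manba (26.9 to 32.4 against 22.2 to 26.7 CPM, log2 −0.24) and the galactosylceramidase Galc (7.89 to 8.44 against 6.68 to 7.59 CPM, log2 −0.17).

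The 4 sulfatases, which remove sulfate from glycosaminoglycans and sulfolipids, held no riser and 2 fallers (14.1% and 20.2% over all genes tested). Sgsh, a heparan sulfatase, was 8.25, 8.92 and 9.60 CPM in WT and 5.0, 6.33 and 5.32 CPM in Prox1-cKO (log2 −0.68, adjusted p = 0.0176). Arsb, which acts on dermatan sulfate, was 23.3, 19.9 and 34.6 CPM in WT and 15.4, 15.6 and 13.1 CPM in Prox1-cKO (log2 −0.81, adjusted p = 0.0210). Neither overlapped, and the WT spread of Arsb came from a high WT replicate 3. Ids, the iduronate sulfatase, did not overlap either but did not pass (log2 −0.57, adjusted p = 0.0713). Arsa, which acts on sulfatide, was 55.2 to 68.2 CPM in WT and 43.2 to 73.2 CPM in Prox1-cKO (log2 −0.03).

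Of the 8 genes for lipid breakdown and transfer, 4 were lower and 1 was higher (20.2% and 14.1% over all genes tested). Gm2a, the activator that lifts GM2 ganglioside from the membrane for its hydrolase (chr11:55098115-55113029, GRCm38), was 337, 309 and 154 CPM in WT and 103, 84.4 and 73.0 CPM in Prox1-cKO, 3.08-fold lower (log2 −1.62, standard error 0.30, adjusted p = 0.00526). The groups did not overlap, and without the low WT replicate 3 the log2 fold change was −1.88. Ppt1, which cleaves palmitate from proteins, was 40.7 to 54.3 CPM in WT and 25.6 to 32.5 CPM in Prox1-cKO (log2 −0.77, adjusted p = 0.00732). Asah1, the acid ceramidase, was 55 to 75.2 CPM in WT and 40.6 to 47.0 CPM in Prox1-cKO (log2 −0.67, adjusted p = 0.0125). Neither overlapped. Psap, the precursor of the saposins that help hydrolases reach sphingolipids, was 742, 692 and 701 CPM in WT and 646, 741 and 809 CPM in Prox1-cKO (log2 0.04, adjusted p = 0.866). The groups overlapped, and Smpd1, the acid sphingomyelinase (log2 −0.21), and Lipa, the acid lipase (log2 −0.22), did not pass either.

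Npc1 and Npc2, which hand cholesterol from one to the other on its way out of the lysosome, moved apart. Npc1, the membrane partner, was 112, 114 and 142 CPM in WT and 176, 203 and 179 CPM in Prox1-cKO (log2 0.60, standard error 0.15, adjusted p = 0.0174). Npc2, the soluble partner, was 148, 136 and 96.4 CPM in WT and 74.0, 64.3 and 70.5 CPM in Prox1-cKO (log2 −0.86, standard error 0.18, adjusted p = 0.00819). Neither gene overlapped between the genotypes. The rise of Npc1 was 0.19 with library totals alone (adjusted p = 0.277). The ratio of Npc1 to Npc2 reads, chosen after the values were seen and so given without a test, was 0.760, 0.841 and 1.47 in WT and 2.38, 3.16 and 2.54 in Prox1-cKO, without overlap on any scaling.

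The 9 membrane proteins held 5 fallers and 1 riser (20.2% and 14.1% over all genes tested), with a median log2 fold change of −0.69. Cd63, a tetraspanin of late endosomes, lysosomes and exosomes (chr10:128900989-128912822, GRCm38), fell furthest of all 51 genes. It was 91.3, 87.8 and 77.9 CPM in WT and 2.81, 3.77 and 3.19 CPM in Prox1-cKO, 26.2-fold lower (log2 −4.71, standard error 0.16, adjusted p = 9.22e-06). The lowest WT liver stood far above the highest Prox1-cKO liver, and WT replicate 3 was 0.870 of the mean of the other WT livers. No exon of Cd63 overlaps another annotated gene.

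Lamp1, a main glycoprotein of the lysosomal coat (chr8:13159161-13175338, GRCm38), was 724, 627 and 987 CPM in WT and 406, 400.0 and 486 CPM in Prox1-cKO (log2 −0.86, standard error 0.21, adjusted p = 0.0175). Lamp2, its relative that also serves chaperone-mediated autophagy, was 557, 585 and 718 CPM in WT and 871, 782 and 718 CPM in Prox1-cKO and did not pass (log2 0.35, adjusted p = 0.163). Lamp1 did not overlap between the genotypes, while the lowest Lamp2 value of Prox1-cKO met the highest of WT. The ratio of Lamp2 to Lamp1 reads, also chosen after the values were seen, lay between 0.727 and 0.934 in the WT libraries and between 1.48 and 2.14 in the Prox1-cKO libraries.

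Cd68 and Laptm5 are known mostly from macrophages and other blood cells. Cd68 was 53.2, 40.9 and 24.6 CPM in WT and 17.0, 14.9 and 12.7 CPM in Prox1-cKO (log2 −1.41, standard error 0.27, adjusted p = 0.00623). Laptm5 was 73.4, 67.0 and 36.8 CPM in WT and 24.8, 23.8 and 22.8 CPM in Prox1-cKO (log2 −1.31, standard error 0.24, adjusted p = 0.00542). In both, WT replicate 3 was lowest in its group but still above every Prox1-cKO liver. Cln3, a membrane protein mutated in juvenile neuronal ceroid lipofuscinosis, was 20.6, 24.6 and 25.7 CPM in WT and 12.6, 14.9 and 16.4 CPM in Prox1-cKO (log2 −0.69, adjusted p = 0.0105), without overlap. Scarb2, the receptor that carries β-glucocerebrosidase to the lysosome, was the riser, at 185, 212 and 195 CPM in WT and 281, 286 and 288 CPM in Prox1-cKO (log2 0.53, adjusted p = 0.0181). The Prox1-cKO livers were close together and above all WT livers, but with library totals alone the log2 fold change was 0.12 (adjusted p = 0.492). Laptm4a (log2 0.07) and the calcium channel Mcoln1 (log2 −0.18), a known TFEB target, did not pass.

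None of the 4 proton pump genes passed the test, and their summed level was 231 to 241 CPM in WT and 208 to 239 CPM in Prox1-cKO. Atp6v0d1, the d subunit used in most cells, was 69.3 to 79.3 CPM in WT and 59.0 to 84.2 CPM in Prox1-cKO (log2 −0.07). Its alternative Atp6v0d2, known from osteoclasts, macrophages and kidney, was 5.82, 8.84 and 3.40 CPM in WT and 6.43, 2.46 and 1.30 CPM in Prox1-cKO (log2 −0.84, adjusted p = 0.280), with overlap. The regulatory subunit Atp6v1h (log2 0.20) and the accessory protein Atp6ap1 (log2 −0.26) did not overlap between the genotypes, in opposite directions, and did not pass.

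Tfeb and Tfe3 mRNA did not pass either. Tfeb (chr17:47737030-47792419, GRCm38) was 10.2, 9.22 and 8.28 CPM in WT and 11.1, 9.99 and 12.9 CPM in Prox1-cKO (log2 0.29, standard error 0.16, adjusted p = 0.199). Tfe3 (chrX:7762560-7775202, GRCm38) was 33.9, 28.1 and 32.4 CPM in WT and 26.7, 33.1 and 40.2 CPM in Prox1-cKO (log2 0.08, standard error 0.16, adjusted p = 0.721). The groups overlapped for both, and both log2 fold changes turned negative with library totals alone, to −0.12 and −0.32. Both factors are controlled largely by phosphorylation and entry into the nucleus, which RNA levels do not measure.

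**Figure D3:**
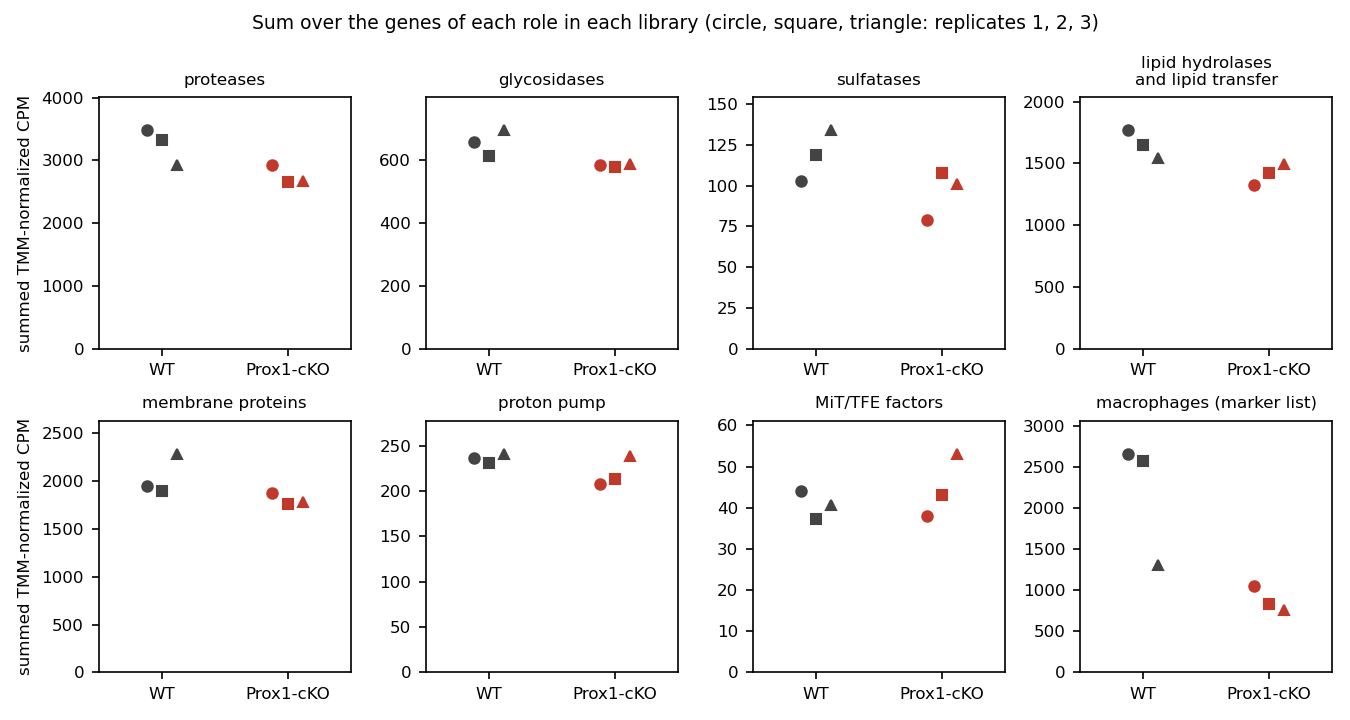
Sum of TMM-normalized CPM over the genes of each role in each library, each panel from 0, with the summed level of the 20 macrophage markers in the last panel. The sums of proteases and of proton pump genes differ little beside the macrophage markers, which run from 1309 to 2665 CPM in WT and from 764 to 1053 CPM in Prox1-cKO.

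The calls were then counted by the E-box classes of the promoters printed above. Of the 6 genes with TCACGTGA, only Cln3 was called (lower), and the median log2 fold change was −0.22. Of the 15 with CACGTG, 3 were higher, 5 lower and 7 not called, with a median of −0.27. Of the 30 with a window and no core, 1 was higher, 10 lower and 19 not called, with a median of −0.29. Over all genes tested, 14.1% were higher and 20.2% lower, with a median of −0.02. Cd63, Gm2a, Cd68, Laptm5 and Ctss, all called lower, are in the class without the core. Glb1 and Lgmn, which fell as far as Laptm5 and Ctss (log2 −1.31 and −1.13), are in the class with it. Relative to the start, the middle of the core in called genes lay between −13 (Lamp1) and −234 bases (Ctsl), with −46 in Glb1, −47 in Lgmn and −27 in Sgsh.

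**Figure D4:**
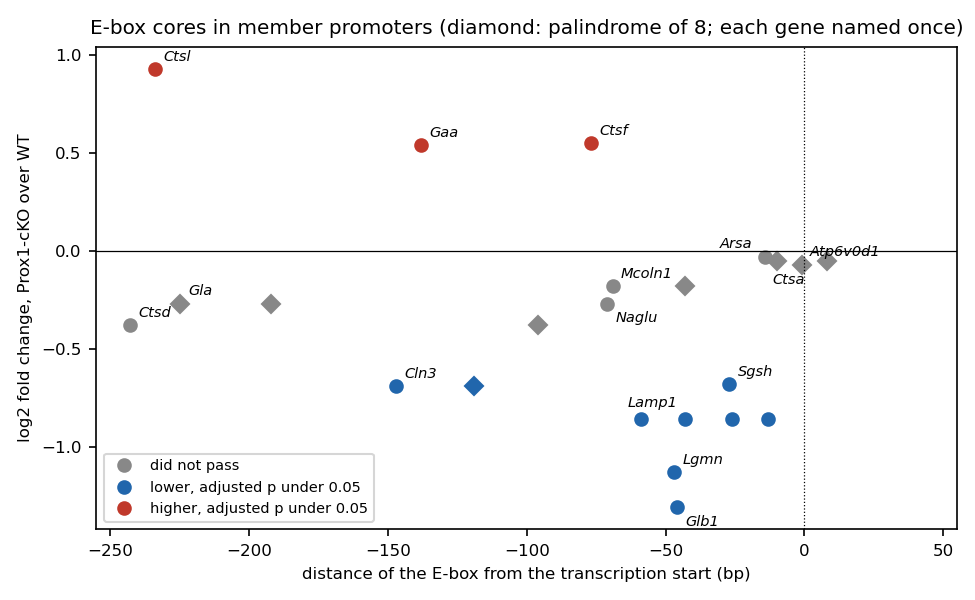
Position of each CACGTG core in the promoters of the 15 genes that hold one, as distance from the transcription start in bases, against the gene's log2 fold change in Prox1-cKO over WT. Diamonds mark the longer palindrome, and red and blue points, called higher and lower, both occur among genes with a core.

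Compared between genes per kilobase of annotated exon, the highest levels in WT were Lamp1 (291 CPM per kb), Ctsz (260.2), Psap (259) and Ctsb (191). In Prox1-cKO they were Psap (267), Ctsz (192), Lamp1 (161) and Ctsl (135). Cd63 went from 23.2 to 0.885 CPM per kb and joined Ctsk and Galc at the bottom of the order. Tfeb was at 1.63 CPM per kb in WT, among the lowest 5.

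Other genes of the same pathways were read from lists of their own. Their counts shift with the scaling as those of the 51 genes do, and the counts with library totals alone are given beside them. Over all 14843 genes tested, 14.1% were higher and 20.2% lower, and library totals alone called 725 higher and 6060 lower. A list whose counts lie near these shares says little about its own genes. Of 31 further lysosomal hydrolases tested, 3 were higher and 8 lower (median log2 −0.13; 2 and 17 with library totals). Hyal1, a hyaluronidase, was 11.2, 16.2 and 19.9 CPM in WT and 35.7, 46.8 and 46.8 CPM in Prox1-cKO, without overlap (log2 1.45, adjusted p = 0.00244). The sulfatase Galns (log2 −1.22, adjusted p = 0.0010) and Ctsw, a cathepsin of cytotoxic lymphocytes (log2 −1.44, adjusted p = 0.0101), were lower. Of 31 further membrane proteins tested, 4 were higher and 11 lower (median −0.26; 1 and 18 with library totals), and the 4 named by size were all lower: the peptide transporter Slc15a3 (−1.38), Abca2 (−1.30), the cation channel Tpcn2 (−1.05) and the amino acid carrier Slc36a1 (−0.95), at adjusted p of 0.00238 to 0.0109.

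Among 12 genes of enzyme sorting, 1 was higher and 3 lower (median −0.15; 1 and 8 with library totals). Cln6 and Cln8, which form a complex that moves newly made enzymes out of the endoplasmic reticulum, changed in opposite directions. Cln6 was 37.5, 35.9 and 44.3 CPM in WT and 2.56, 3.22 and 6.57 CPM in Prox1-cKO (log2 −3.25, adjusted p = 4.81e-04). Cln8 was 30.8, 33.6 and 27.7 CPM in WT and 56.1, 73.3 and 83.7 CPM in Prox1-cKO (log2 1.21, adjusted p = 0.00181). Neither overlapped. Gnptab, which starts the mannose 6-phosphate tag, and the adaptor Gga2 were lower (log2 −0.72 and −1.07, adjusted p = 0.00463 and 0.0105), and the receptors Igf2r and M6pr were at log2 −0.00 and 0.01.

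Of 21 further proton pump genes tested, none was higher and 4 were lower (median −0.32; 0 and 18 with library totals). Atp6v1b2, Atp6ap2 and Atp6v1g1 had log2 fold changes of −0.53, −0.49 and −0.47 (adjusted p = 0.0161, 0.0179 and 0.0260), and each lost its call when certain libraries were left out: Atp6v1b2 without WT replicate 1 or Prox1-cKO replicate 1 or 2 (up to 0.0824), Atp6ap2 without WT replicate 1 or 2 or Prox1-cKO replicate 1 or 3 (up to 0.0712), and Atp6v1g1 without any library but WT replicate 3 (up to 0.106). Atp6v0a4, the a subunit known from the acid-secreting cells of the kidney, was nearly lost. It had 1663 reads in the 3 WT livers (19.7 to 28.0 CPM) and 2 reads in the 3 Prox1-cKO livers, both in replicate 1, a ratio of 644 (95% exact Poisson interval 178 to 5324, which covers counting error only; adjusted p = 3.72e-05).

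The relatives and controllers of TFEB held 2 higher and 2 lower genes of 18 tested (median 0.09; 0 and 8 with library totals, median −0.33). Tfec, another MiT/TFE factor, was 27.8, 24.9 and 22.7 CPM in WT and 4.87, 5.02 and 4.26 CPM in Prox1-cKO (log2 −2.41, adjusted p = 6.16e-05). Rragd, a Rag GTPase that relays amino acid supply to mTORC1 and is itself a known TFEB target, was 19.6, 8.42 and 24.5 CPM in WT and 1.75, 2.51 and 3.02 CPM in Prox1-cKO (log2 −2.84, adjusted p = 0.00216). Neither overlapped, although WT replicate 2 was low for Rragd. Rptor, the scaffold of mTORC1, was higher (log2 0.58, adjusted p = 0.0226) but not with library totals alone (0.17, adjusted p = 0.345) or without WT replicate 1 or 2 or Prox1-cKO replicate 2 or 3 (up to 0.0748). Ppargc1a, the other gene called higher, overlapped between the genotypes, and Mitf did not pass (log2 −0.38, adjusted p = 0.271).

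Of 44 autophagy genes, 13 were higher and 4 lower (median log2 0.22), but with library totals alone 6 were higher and 11 lower (median −0.19). Bnip3, a mitophagy receptor, was 35.7, 35.8 and 35.7 CPM in WT and 102, 105 and 108 CPM in Prox1-cKO (log2 1.55, adjusted p = 9.02e-05). Optn, a cargo receptor, rose from 69.0 to 78.6 CPM to 134 to 172 CPM (log2 1.08, adjusted p = 0.00144). Both stayed higher with library totals alone, at log2 1.14 and 0.68. Atg16l2 and Wipi1 were lower (log2 −1.08 and −0.89, adjusted p = 0.0245 and 0.00572), the former not without Prox1-cKO replicate 1 or 2 (up to 0.0855), and the cargo receptor Sqstm1 overlapped between the genotypes (log2 0.22, adjusted p = 0.422).

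**Figure D5:**
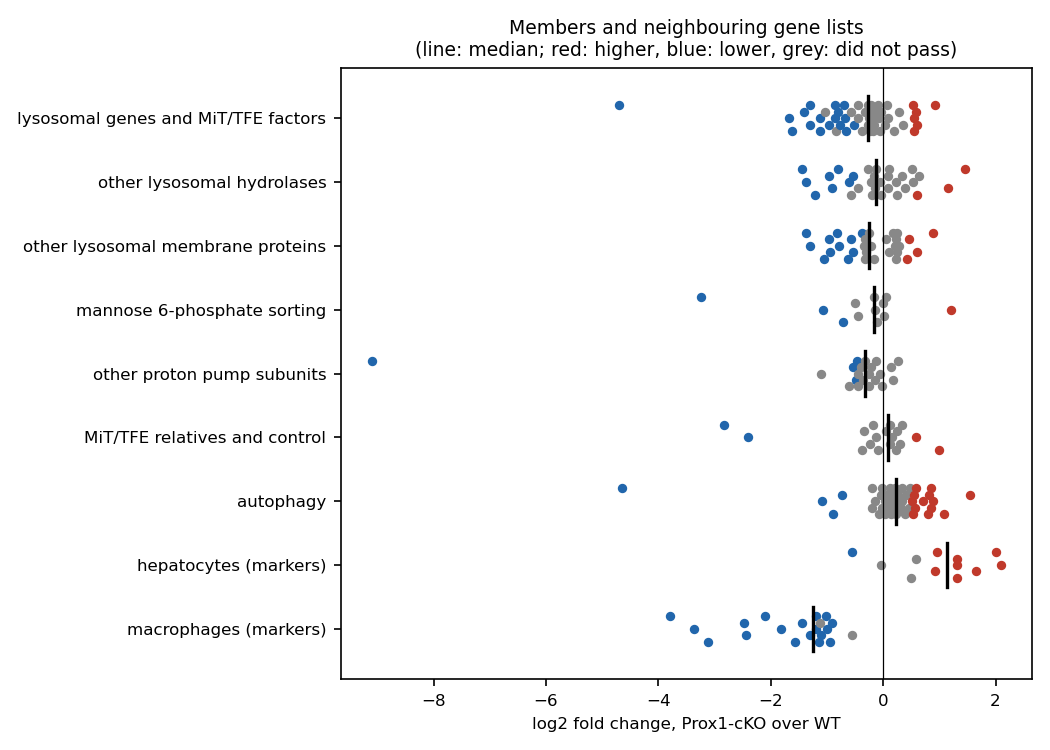
Log2 fold change in Prox1-cKO over WT of the 51 genes and of the tested genes of each neighbouring list, with black lines at the medians. The macrophage markers all lie to the left of 0 with a median of −1.25 and the hepatocyte markers centre on 1.14; the autophagy genes have a median of 0.22, which turns to −0.19 with library totals alone.

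Markers of several cell types moved with the genotype, where 14.1% of all genes were called higher and 20.2% lower. Of 20 macrophage markers, none was higher and 18 were lower, with a median log2 fold change of −1.25 and none without reads in either genotype. Their sum was 2665, 2579 and 1309 CPM in WT and 1053, 829 and 764 CPM in Prox1-cKO, and WT replicate 3 was again far below the other WT livers. Adgre1, which encodes F4/80, and the growth factor receptor Csf1r were lower (log2 −1.15 and −0.95, adjusted p = 0.0308 and 0.0293). Clec4f, a Kupffer cell lectin, was 136 to 312 CPM in WT and 152 to 186 CPM in Prox1-cKO and did not pass (log2 −0.56, adjusted p = 0.171). In 8 of the 51 genes, WT replicate 3 was at 0.364 to 0.679 of the mean of the other WT livers: Ctss, Ctsc, Atp6v0d2, Gm2a, Cd68, Laptm5, Lgmn and Npc2. For the 6 of these that were called, the fall was larger without that library, at −1.46 for Ctss, −1.88 for Gm2a, −1.64 for Cd68, −1.54 for Laptm5, −1.32 for Lgmn and −1.01 for Npc2. Leaving out the lowest WT library raises the WT mean, so picking these genes by that library fixed this outcome in advance. For Cd63, Glb1 and Ctsb, WT replicate 3 was at 0.870, 0.952 and 0.908 of the other WT livers. WT replicate 3 was also the lowest WT liver for other marker sums. In WT, dividing cells summed to 250.1, 221 and 109.7 CPM, and bile duct cells to 219, 186 and 153 CPM. Lymphocytes and neutrophils summed to 23.3, 32.4 and 16.9 CPM. It was the highest for stellate cells and fibroblasts (703 CPM) and endothelium (693 CPM), and near replicate 2 for hepatocytes (78633 against 79203 CPM). Whether macrophages or these other cell types have a part in the falls above was not tested.

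Of 12 hepatocyte markers, 8 were higher and 1 lower (median log2 1.14). Lower were 6 of 8 markers of bile duct cells, 8 of 13 of stellate cells and fibroblasts, and 10 of 12 of dividing cells. Of lymphocytes and neutrophils 4 of 11 were lower, and of endothelium 3 of 12, with none higher in any of these lists. The endothelium count is near the 20.2% of all genes called lower, and the endothelium sums overlapped between the genotypes. The summed levels were 153 to 219 CPM in WT and 51.7 to 76.0 CPM in Prox1-cKO for bile duct cells, 598 to 703 against 387 to 441 CPM for stellate cells and fibroblasts, and 109.7 to 250.1 against 55.8 to 63.0 CPM for dividing cells. They were 16.9 to 32.4 against 9.17 to 11 CPM for lymphocytes and neutrophils and 535 to 693 against 421 to 640.3 CPM for endothelium. Among the neutrophil markers, S100a8 had 120 reads in WT and 21 in Prox1-cKO (log2 −2.12, adjusted p = 0.00883). S100a9 had 240 reads in WT and 34 in Prox1-cKO (log2 −2.44, adjusted p = 8.71e-04), and neither overlapped. Mpo had 8 reads in WT and 0 in Prox1-cKO, and Ly6g had 0 in WT and 2 in Prox1-cKO, too few to be tested. The part of these cell types in the results above was not tested.

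Shared exons limit some of the values, since the strand of the reads is not given in the sources used here. Exons of 17 of the 51 genes overlap another annotated gene. Among the called genes, several share bases with a gene on the opposite strand. Ctsb shares 774 with Fdft1, Lamp1 249 with Grtp1, Sgsh 955 with Card14, Cln3 442 with Apobr and Ppt1 129 with Cap1. Arsb shares 1948 with Gm26527 and 463 with Gm47210, and Npc1 shares 511 with Rmc1 and 90 with Gm15956. Ctsl shares 1742 bases with the antisense gene Gm47123 and 395 with Gm49230, a pseudogene on its own strand, and Glb1 shares 165 bases with Tmppe on its own strand. Ctsd, which was not called, shares 808 bases with the same-strand gene model Gm49369.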

How the data were processed

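Liver RNA of 3 WT and 3 Prox1-cKO mice was analysed from the deposited table of whole read counts, 1 row for each gene. As the authors' tools, the notes of the submission list HTSeq, DESeq and HISAT2 2.1.0, and they give a human assembly, GRCh38, although 29641 of the 29667 identifiers were found in the mouse annotation GENCODE M21. For the annotation release and the strand, the entry is: not given in the sources used here. A deposited table named FPKM was not used, and no column was left out. The paper describes n as biological replicates.

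In R 4.3.3 with edgeR 4.0.16, filterByExpr kept 14843 genes, TMM set the scale, and the quasi-likelihood test compared the genotypes with no other term (Benjamini-Hochberg adjustment over all genes kept). The procedure was run on simulated counts with the same dispersion for all genes and known folds in some of them. That run was not built to test a shift in scale between the genotypes, and no result above rests on it. WT libraries had TMM factors of 1.09 to 1.20, and the others 0.842 to 0.893. Log CPM correlated at 0.965 to 0.987 within genotypes and at 0.893 to 0.921 between them.

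The 51 genes and the other lists were chosen with earlier results of these data known. All 51 are described, with every library's value for those called at an absolute log2 fold change of at least 1, for Tfeb and Tfe3, and for the 3 of highest level per kb. Of each other list, up to 4 genes of largest change were named among those called without overlap whose higher genotype averaged 1 CPM or more, and of the macrophage list the first 3 genes. Atp6v0a4 is given by its reads. A further gene that this rule names is not reported here. Mitf, Ppargc1a, Igf2r, M6pr, Sqstm1, S100a8, S100a9, Mpo, Ly6g and Alb were chosen after their values were seen. Relative to the settings above, 1 choice at a time was changed: scaling (RLE, or library totals alone), filter (any gene with 1 count, or 10 counts needed in each library), tool (DESeq2 1.42.0, or limma-trend of limma 3.58.1 after adding 1 to CPM before the log2), a term for the replicate number, leaving out each library, and the threshold (a fold of at least 2, or an unadjusted p under 0.05). Exon lengths and positions came from GENCODE M21 (GRCm38), and promoter windows from RefSeq (GRCm38.p6). In 45 of the 52 windows used, a short stretch of the bases after the start, not all of them, was found in a GENCODE transcript of the gene. Distances are from the RefSeq start, and some printed stretches, such as those of Ctsl and Lgmn, lie inside the GENCODE span of the gene. Figures were drawn with matplotlib 3.10.9.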

Additional observations from a re-analysis of the deposited data

How the results depend on the processing

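Against 6 higher and 17 lower of the 51 genes, library totals alone gave 1 and 36, and a fold of at least 2 gave 0 and 8. Over all genes, 2087 were higher and 2999 lower; library totals alone gave 725 and 6060, and a fold of at least 2 gave 735 higher. With 1 library left out, 2 to 6 of the 51 were higher and 12 to 18 lower, and over all genes 1201 to 2604 and 1999 to 3468, with the fewest in each case without Prox1-cKO replicate 2 (shared with WT replicate 1 for the 51 higher). The other settings stayed within 1.5 times these counts. Of the 23 calls, RLE scaling and no filter each lost Fuca1, at least 10 counts in every library lost Ctsk, limma lost Ctss, and DESeq2 lost none. No filter and DESeq2 each added Ctsc, and at least 10 counts in every library added Hexa. Library totals alone lost 5 and added 19.

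Directions turned only in genes that had not passed. With library totals alone, the log2 fold changes were −0.37 for Psap, −0.06 for Lamp2, −0.35 for Laptm4a, −0.21 for Atp6v1h, −0.12 for Tfeb and −0.32 for Tfe3. Psap was −0.01 with at least 10 counts in every library. With 1 library left out, Idua ran from −0.27 to 0.21 (0.02 without Prox1-cKO replicate 1), Arsa from −0.14 to 0.19 (0.02 and 0.05 without WT replicates 2 and 3), Psap from −0.03 to 0.13, Atp6v0d1 from −0.20 to 0.06 and Tfe3 from −0.06 to 0.23. The cause of these turns was not tested.

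Nothing in the labels says that replicate numbers pair the mice. Deviations from the genotype means correlated at 0.148, 0.0561 and 0.155 between same-numbered libraries. WT replicate 2 correlated best with Prox1-cKO replicate 1 (0.0589), and the remaining pairs of different number ran from −0.158 to −0.00609. With the replicate number as a block, 24 of the 51 genes were called in place of 23 (Ctsc was added), with 6 higher and 18 lower. With 3 livers per genotype, small changes in genes of few reads, such as Ctsk, may be missed or misjudged.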
